A study of Arabidopsis thaliana with 12 samples.

Results

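The genotype by salt interaction is the difference between the change of dcp5-1 seedlings and the change of Col-0 seedlings over 60 min in NaCl, gene by gene. It used all 12 of the 12 libraries of the study: 3 of dcp5-1 at 60 min, 3 of dcp5-1 at 0 min, 3 of Col-0 at 60 min and 3 of Col-0 at 0 min. All were made from mRNA of whole Arabidopsis thaliana seedlings, aged 5 days. dcp5-1 is a mutant allele of the decapping gene DCP5, and Col-0 is the reference accession without it. Both genotypes had 3 days at 4 °C as seeds, then grew on 1x MS agar at 22 °C under 16 h light and 8 h dark, and spent 30 min in 1x MS liquid before the same medium with 150 mM NaCl. The contrast rests on a single mutant allele, and no library of 60 min without NaCl is labelled, so each change holds the salt and a further 60 min in liquid. The labels do not say whether the 3 libraries of a group came from separate cultures, and p-values therefore measure how far these libraries scatter, which could be technical scatter alone.

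Messenger RNA is protected by a cap at its 5′ end, and removal of that cap by the enzyme DCP2 commits a transcript to degradation by the exonuclease XRN4. DCP5 is an LSM14-family protein that works with DCP1, DCP2 and VCS in the decapping complex, helps to build the cytoplasmic granules called processing bodies, and has been linked to translational repression of stored seed mRNAs. In salt, plants shut down growth and photosynthesis genes and induce genes of abscisic acid (ABA) and dehydration signalling within the first hour. The level of an mRNA reflects both its synthesis and its decay, and neither was measured separately here.

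DCP5 itself (AT1G26110, chromosome 1, 9024341 to 9027955, TAIR10.1) checked the labels. It had 20.7, 20.2 and 20.6 FPKM in dcp5-1 at 60 min and 12.99, 12.96 and 13.2 FPKM in dcp5-1 at 0 min. In Col-0 it had 78.8, 84.9 and 76.6 FPKM at 60 min and 48.5, 51.7 and 52.1 FPKM at 0 min. Every dcp5-1 library was below every Col-0 library. FPKM are fragment counts scaled by transcript length and by the size of the library. The DCP5 transcript rose by 0.61 log2 units in dcp5-1 and 0.65 in Col-0, with an interaction of -0.03 (SE 0.066, limma adjusted p = 0.751). With quantile normalization that interaction was -0.44 (limma adjusted p = 0.00045).

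Values were compared as log2(FPKM + 1), and a response is the 60 min mean minus the 0 min mean of a genotype on that scale. The interaction is the dcp5-1 response minus the Col-0 response: a positive value means that the change was more upward, or less downward, in dcp5-1. Of 38088 loci in the table, 19876 had a mean of at least 1 FPKM and were tested with limma, which gave a median standard error of 0.121 log2 units. At a Benjamini-Hochberg adjusted p under 0.05, 4850 loci were called, 24.4% of those tested. Of these, 3248 (16.3%) were higher and 1602 (8.06%) lower in dcp5-1. Most differences were small. The median absolute interaction was 0.209 over all loci tested, and 121 loci called higher and 52 called lower reached 1 log2 unit.

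The split between the directions depended on scaling, so it is given with its alternatives. As deposited, 67% of the calls were higher, with 3248 higher and 1602 lower. With quantile normalization the counts were 2033 higher and 2077 lower (49.5% higher). In a further alternative, trends on length, GC content and abundance were fitted to each library's deviations from gene means and subtracted (the 3 trends below). That was done before the limma fit, so such trends also left the responses and gaps. The counts were then 1669 and 1604 (51%), and with the length trend alone removed 2423 and 1595 (60.3%). Whole reads could be recovered for 7697 of the tested loci, which are genes with 1 transcript of more than 1000 nt. On those reads limma-voom called 1522 higher and 640 lower at the scale of the FPKM (70.4% higher), and 550 higher and 2084 lower when each library was scaled to the total of these genes (20.9% higher), where the median interaction was -0.18. The balance of higher and lower calls, and small interactions near these shifts, are therefore not firm, and each gene list below is given with its counts under quantile normalization.

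Many of the interactions were smaller falls in dcp5-1. Of the 3248 loci called higher, 1570 fell in both genotypes and less in dcp5-1, with median responses of -0.64 in dcp5-1 and -1.16 in Col-0. A further 568 fell in Col-0 and were not called in dcp5-1, 538 rose in both and more in dcp5-1, 377 rose in dcp5-1 and were not called in Col-0, 188 moved in opposite directions, and 7 had no called response in either genotype. Of the 1602 loci called lower, 707 rose in both genotypes and less in dcp5-1, with median responses of 0.47 in dcp5-1 and 0.90 in Col-0. Another 418 rose in Col-0 and were not called in dcp5-1, 214 fell in dcp5-1 and were not called in Col-0, 178 fell in both and more in dcp5-1, 75 moved in opposite directions, and 10 had no called response in either. The salt response itself was called for 66.7% of loci in dcp5-1 (35.1% rose and 31.6% fell) and 72% in Col-0 (36.3% rose and 35.7% fell).

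**Figure D1:**
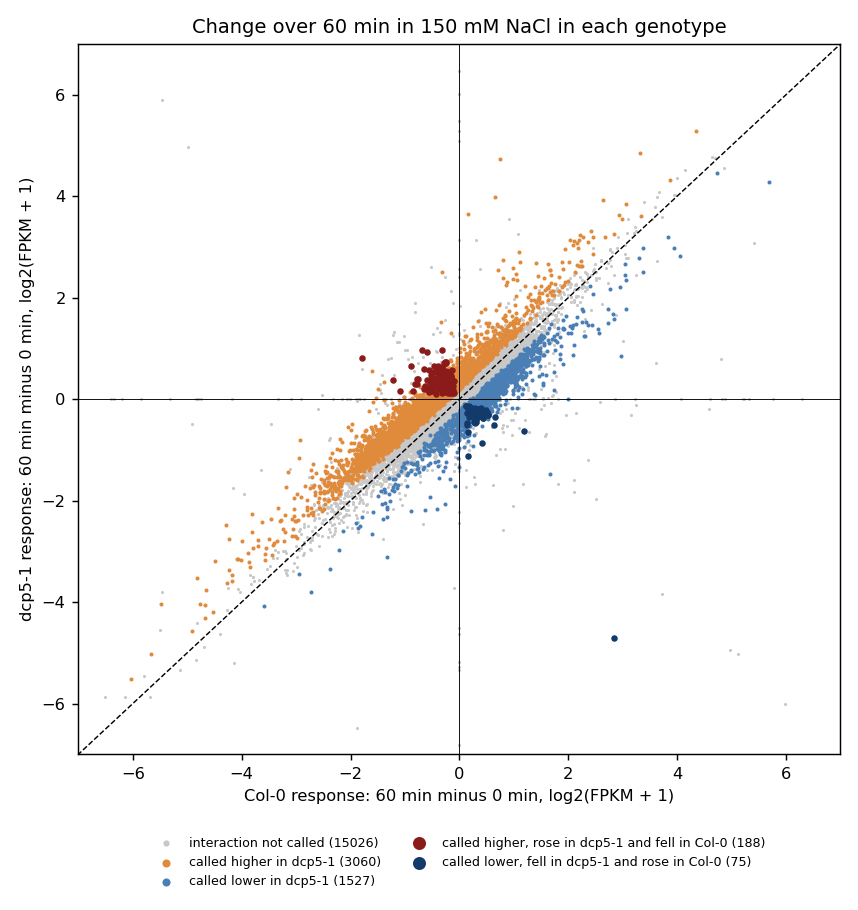
Change over 60 min in 150 mM NaCl of each of the loci tested, on the log2(FPKM + 1) scale, in dcp5-1 (vertical axis) against Col-0 (horizontal axis), with the line of equal change dashed and colours for the interaction call. Most called loci lie in the 2 quadrants where both genotypes moved the same way, and the dark points are the 188 and 75 called loci whose responses were both called and opposite; 4 loci, 1 of them called, lie beyond the axes.

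The interaction differed between classes of the mean response of both genotypes, which uses the same 12 libraries in another combination, but it did not follow the size of rises. Among the 1659 loci whose mean response was a fall of at least 1 log2 unit, 40.2% were called higher and 3.74% lower, and the median responses were -1.25 in dcp5-1 and -1.54 in Col-0. Their median interaction was 0.33 as deposited, 0.22 with quantile normalization, 0.16 with the 3 trends removed and 0.05 on recovered reads scaled to their own total. Among the 5809 loci with a smaller called fall, 23.9% were called higher and 4.67% lower. Among the 7066 loci with a called rise under 1 log2 unit the balance was the other way, with 9.43% called higher, 12.65% called lower and a median interaction of -0.06. Among the 882 loci whose mean response was a rise of at least 1 log2 unit, 20.9% were called higher and 14.9% lower, and the median interaction of 0.03 changed sign between settings.

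**Figure D2:**
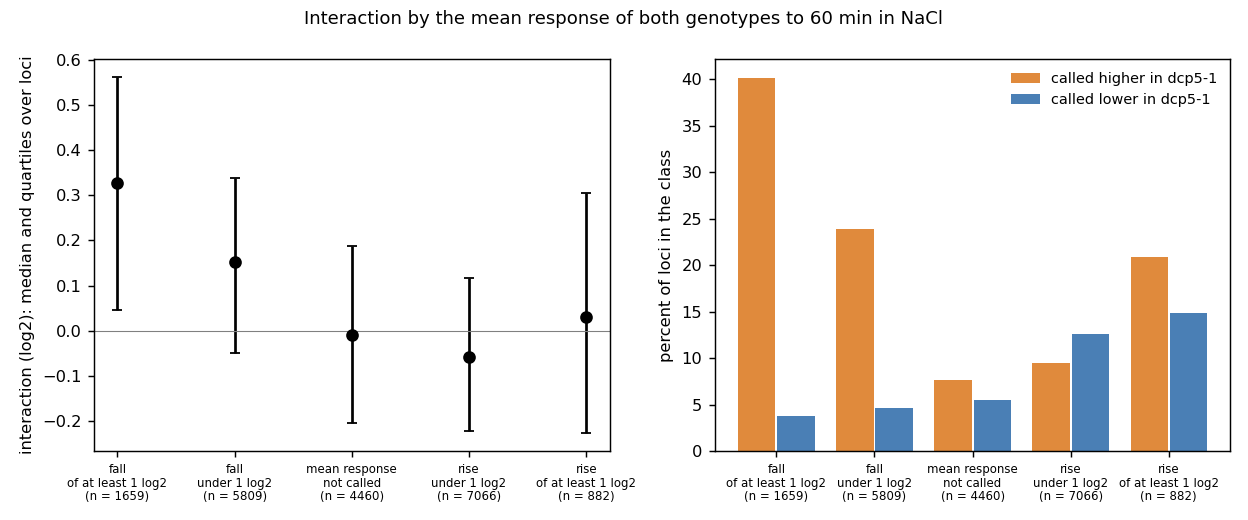
Left, the median interaction (log2 scale; bars are the lower and upper quartiles over loci) in 5 classes of mean response to 60 min in NaCl; right, the percent of loci in each class called higher or lower in dcp5-1. The class of strong falls stands highest in both panels, with a median of 0.33 and 40.2% called higher.

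Transcript length moved with the interaction. Over 18719 nuclear protein-coding loci, Spearman's rho between interaction and length was -0.34, across genes, which share the libraries and are not independent. The shortest of 3 equal classes of length, with a median length of 1029 nt, had a median interaction of 0.17 and 1511 calls higher and 231 lower. The longest class, with a median of 2627 nt, had a median of -0.09, with 560 higher and 940 lower. The part of length in the results was not tested beyond the alternatives above, in which its trend is removed.

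An interaction can arise from a gap between the genotypes at 60 min, at 0 min or at both. Loci called higher had a median gap, dcp5-1 minus Col-0, of 0.27 at 60 min and -0.20 at 0 min. Loci called lower had a median gap of -0.39 at 60 min and 0.05 at 0 min. Over all loci tested the gap was called for 54.5% at 60 min (27.1% higher and 27.4% lower in dcp5-1) and 46.9% at 0 min (18.8% higher and 28.1% lower). In 1506 of the 3248 loci called higher (46.4%) and 479 of the 1602 called lower (29.9%) the gap was larger at 0 min than at 60 min, against 44.4% of all loci tested. The genes described next fall on both sides of this division.

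Among genes with a symbol and at least 5 FPKM in a group, several of the largest positive interactions came from transcripts that were low in dcp5-1 before salt and level with Col-0, or above it, afterwards. EARLI1 (AT4G12480) and AZI1 (AT4G12470) encode lipid transfer-like, proline-rich proteins of the cell wall and plastid surface, and AZI1 is known from the priming of systemic immunity. EARLI1 had 108, 112 and 116 FPKM in dcp5-1 at 60 min and 15.4, 16.2 and 16.1 FPKM in dcp5-1 at 0 min. Its Col-0 libraries had 107, 119.9 and 105 FPKM at 60 min and 54.9, 67.9 and 68.3 FPKM at 0 min. The genotypes overlapped at 60 min and were apart at 0 min, where dcp5-1 was lower. The EARLI1 interaction was 1.95 (SE 0.113, limma adjusted p = 9.31e-06). AZI1 had 118, 128 and 105 FPKM in dcp5-1 at 60 min and 19.0, 18.9 and 19.6 FPKM in dcp5-1 at 0 min, against 79.4, 82.8 and 76.9 FPKM in Col-0 at 60 min and 40.8, 53.7 and 51.6 FPKM in Col-0 at 0 min. Here dcp5-1 was below Col-0 before salt and above it after, and the interaction was 1.84 (SE 0.134, limma adjusted p = 2.02e-05).

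EARLI1 and AZI1 stand in a row of related genes on chromosome 4, and their neighbours AT4G12490, AT4G12495 and AT4G12500 were looked at after the values of the pair were seen. AT4G12490 had 30.0, 27.4 and 32.7 FPKM in dcp5-1 at 60 min and 1.69, 1.017 and 1.75 FPKM in dcp5-1 at 0 min. In Col-0 it had 30.2, 34.9 and 30.0 FPKM at 60 min and 25.3, 29.9 and 30.3 FPKM at 0 min, so that 3 of the 4 groups were alike and dcp5-1 at 0 min stood apart. The AT4G12490 interaction was 3.504 (SE 0.170, limma adjusted p = 5.08e-06). AT4G12495, which overlaps AT4G12490 on the opposite strand and cannot be told apart from it without strand, had an interaction of 3.34. AT4G12500 averaged 2.73 FPKM in dcp5-1 at 60 min, 0.543 FPKM in dcp5-1 at 0 min, 5.93 FPKM in Col-0 at 60 min and 4.58 FPKM in Col-0 at 0 min, with an interaction of 0.97 (limma adjusted p = 0.00311). These genes are similar in sequence, and how reads that match several of them were counted is not given in the sources used here. The 250 bases before the starts of AZI1 and EARLI1 are shown, as the pair that the naming rule picked from this cluster, with AATATCT (the evening element) and ACGTG (the core of ABA response elements) in capitals on either strand; positions are on chromosome 4, minus strand, of TAIR10.1 from RefSeq, chr4:7401952-7402201 for AZI1 and chr4:7406995-7407244 for EARLI1.
AZI1: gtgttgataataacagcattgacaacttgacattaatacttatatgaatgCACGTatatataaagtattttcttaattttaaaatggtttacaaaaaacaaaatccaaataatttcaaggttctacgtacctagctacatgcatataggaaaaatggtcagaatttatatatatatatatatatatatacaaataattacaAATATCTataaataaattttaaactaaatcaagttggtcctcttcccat
EARLI1: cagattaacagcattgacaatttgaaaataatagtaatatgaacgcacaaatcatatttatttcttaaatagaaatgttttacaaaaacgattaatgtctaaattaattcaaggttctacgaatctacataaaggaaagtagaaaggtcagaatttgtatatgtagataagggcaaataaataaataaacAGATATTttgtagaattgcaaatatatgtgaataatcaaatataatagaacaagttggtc

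TEM1 (AT1G25560), a RAV-family repressor of flowering, had the same form as AZI1. It had 165, 168 and 174 FPKM in dcp5-1 at 60 min and 31.6, 32.9 and 30.3 FPKM in dcp5-1 at 0 min, against 129, 126 and 118 FPKM in Col-0 at 60 min and 66.3, 80.9 and 66.2 FPKM in Col-0 at 0 min. The genotypes did not overlap at either time, and their order turned round (interaction 1.58, SE 0.103, limma adjusted p = 1.03e-05). NAC019 (AT1G52890), a stress-induced NAC transcription factor, rose in both genotypes and more in dcp5-1. It had 95.9, 93.9 and 99.3 FPKM in dcp5-1 at 60 min and 2.38, 2.54 and 2.17 FPKM in dcp5-1 at 0 min, against 57.7, 56.6 and 55.4 FPKM in Col-0 at 60 min and 4.39, 5.67 and 4.39 FPKM in Col-0 at 0 min. Again dcp5-1 was lower before salt and higher after, and the responses were 4.86 in dcp5-1 and 3.31 in Col-0 (interaction 1.54, SE 0.110, limma adjusted p = 1.8e-05). RD26, a relative of it, had responses of 5.29 in dcp5-1 and 4.35 in Col-0 (interaction 0.94, limma adjusted p = 0.0028). The gap of RD26 was -0.12 at 60 min and -1.05 at 0 min: it averaged 319 FPKM in dcp5-1 and 346 FPKM in Col-0 at 60 min, and 7.25 FPKM in dcp5-1 and 16.1 FPKM in Col-0 at 0 min.

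HEC1 opened a gap between the genotypes during salt, and ORS1 widened one. HEC1 (AT5G67060), a basic helix-loop-helix factor of meristem and carpel development, had 22.7, 24.1 and 25.4 FPKM in dcp5-1 at 60 min and 2.37, 2.17 and 2.49 FPKM in dcp5-1 at 0 min, against 6.24, 7.27 and 5.70 FPKM in Col-0 at 60 min and 2.12, 2.40 and 2.94 FPKM in Col-0 at 0 min. The genotypes overlapped at 0 min, and every dcp5-1 library was higher at 60 min. The HEC1 interaction was 1.82 (SE 0.138, limma adjusted p = 2.44e-05). ORS1 (AT2G41230), a regulator of organ size, averaged 10.5 FPKM in dcp5-1 at 60 min and 0.92 FPKM in dcp5-1 at 0 min, against 2.07 FPKM in Col-0 at 60 min and 0.542 FPKM in Col-0 at 0 min (interaction 1.59, limma adjusted p = 0.000346). Its gap was 1.91 at 60 min and 0.32 at 0 min (limma adjusted p = 0.0713 at 0 min), where every dcp5-1 library was already slightly higher.

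FLA9, P1R3 and the locus of MIR167d, also among the largest positive interactions, fell less in dcp5-1. FLA9 (AT1G03870), a fasciclin-like arabinogalactan protein of the cell wall, had 78.3, 83.3 and 80.6 FPKM in dcp5-1 at 60 min and 608, 534 and 526 FPKM in dcp5-1 at 0 min. In Col-0 it had 39.9, 40.3 and 32.4 FPKM at 60 min and 624, 815 and 741 FPKM at 0 min. FLA9 fell in both genotypes, by 2.77 log2 units in dcp5-1 and by 4.24 in Col-0 (interaction 1.47, SE 0.149, limma adjusted p = 0.000148). P1R3 averaged 1.85 FPKM in dcp5-1 at 60 min and 8.66 FPKM in dcp5-1 at 0 min, against 1.505 FPKM in Col-0 at 60 min and 22.0 FPKM in Col-0 at 0 min (interaction 1.46, limma adjusted p = 0.0035). The locus of the microRNA precursor MIR167d (AT1G31173) had 0.817, 0.367 and 1.62 FPKM in dcp5-1 at 60 min and 1.82, 2.11 and 2.98 FPKM in dcp5-1 at 0 min, against 0.783, 0.818 and 0.765 FPKM in Col-0 at 60 min and 20.03, 12.2 and 8.03 FPKM in Col-0 at 0 min (interaction 2.12, SE 0.405, limma adjusted p = 0.00409). Those are reads of a short precursor transcript, not of the mature microRNA, and the Col-0 libraries at 0 min spread widely.

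**Figure D3:**
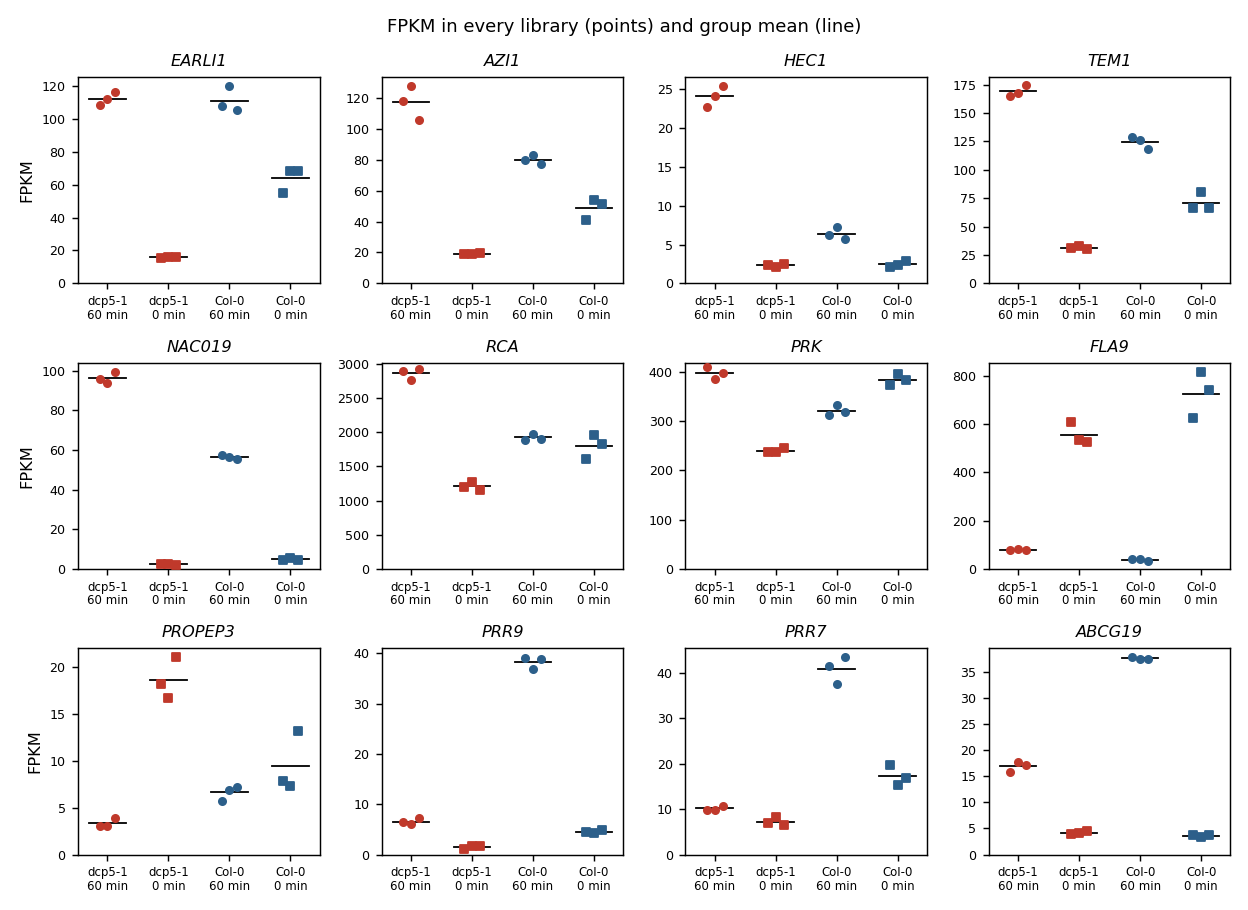
FPKM of 12 named genes in every library (points; circles 60 min, squares 0 min) with the group mean as a line, each panel with its own linear axis from 0 and the groups from left to right dcp5-1 at 60 min, dcp5-1 at 0 min, Col-0 at 60 min and Col-0 at 0 min. EARLI1, AZI1, TEM1 and NAC019 were lower in dcp5-1 before salt, HEC1 overlapped between genotypes at 0 min and not at 60 min, and PRR9, PRR7 and ABCG19 were lower in dcp5-1 at 60 min.

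Among the genes of large interaction, EARLI1, ORS1, OLEO2 and CBF3 overlap annotated loci on the opposite strand, and without strand reads of such a pair cannot be told apart. The same holds for further genes described below, among them BZS1, RCA, PRK, PSAG, LHCB4.2 and ABI1.

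The loci that moved in opposite directions were few, and their movements small. Those that rose in dcp5-1 and fell in Col-0 numbered 188 (0.946% of loci tested), and those that fell in dcp5-1 and rose in Col-0 numbered 75 (0.377%). The smaller of a locus's responses had a median size of 0.211 log2 units in the first group and 0.231 in the second. Both responses reached 0.5 log2 units in 6 loci of the first group and 3 of the second. The 3 of the second group were CHI, the chloroplast locus ATCG01300 (interaction -1.82, limma adjusted p = 0.00243) and AT5G11242, named after their values were seen. Both responses reached 1 in 0 loci of the first group and 1 of the second, AT5G11242, which is listed at 0 in all dcp5-1 libraries at 60 min, in 1 Col-0 library at 60 min and in all Col-0 libraries at 0 min. It has no annotated role in the files and is not read further.

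OLEO2 (AT5G40420), an oleosin of seed oil bodies, led the named genes of the first group. It had 1.94, 2.35 and 2.11 FPKM in dcp5-1 at 60 min and 0.753, 0.726 and 0.896 FPKM in dcp5-1 at 0 min, against 4.15, 5.23 and 2.99 FPKM in Col-0 at 60 min and 14.8, 17.9 and 16.5 FPKM in Col-0 at 0 min. Every dcp5-1 library was below every Col-0 library at both times, and the gap was smaller at 60 min (interaction 2.59, SE 0.194, limma adjusted p = 2.35e-05). PER1, a seed peroxiredoxin, averaged 1.86 FPKM in dcp5-1 at 60 min and 1.18 FPKM in dcp5-1 at 0 min, against 3.295 FPKM in Col-0 at 60 min and 8.95 FPKM in Col-0 at 0 min (interaction 1.58, limma adjusted p = 0.000346). All 4 tested members of the seed maturation list (OLEO2, OLEO1, PER1 and EM6) were called higher, with a median interaction of 1.65, and the count was 4 under every scaling of the full table. The other 5 of its 9 members were under 1 FPKM on average and untested; CRU3 was listed at 0 in all libraries. The summed level of the 9 was 11.2 to 12.6 FPKM in dcp5-1 at 60 min and 6.52 to 7.16 FPKM in dcp5-1 at 0 min, against 14.9 to 18.5 FPKM in Col-0 at 60 min and 43.7 to 56.2 FPKM in Col-0 at 0 min. In whole seedlings fewer cells of a kind and less RNA per cell cannot be told apart, here or below.

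UPB1 (AT2G47270), a basic helix-loop-helix factor that controls peroxidase genes in the root, had 22.5, 22.8 and 22.1 FPKM in dcp5-1 at 60 min and 11.0, 10.9 and 10.8 FPKM in dcp5-1 at 0 min, against 18.6, 17.43 and 17.9 FPKM in Col-0 at 60 min and 22.8, 24.4 and 20.6 FPKM in Col-0 at 0 min. It rose by 0.98 log2 units in dcp5-1 and fell by 0.31 in Col-0 (interaction 1.29, SE 0.081, limma adjusted p = 9.8e-06). EXPA8, an expansin that loosens cell walls, had 27.1, 27.5 and 29.6 FPKM in dcp5-1 at 60 min and 21.5, 22.3 and 19.6 FPKM in dcp5-1 at 0 min, against 16.0, 14.3 and 13.1 FPKM in Col-0 at 60 min and 21.8, 29.7 and 25.4 FPKM in Col-0 at 0 min. It was level before salt, where the libraries overlapped, and apart after (interaction 1.17, limma adjusted p = 0.000364). PKS4, a phytochrome kinase substrate of light and gravity responses, had the same form, with responses of 0.66 in dcp5-1 and -0.46 in Col-0. GRXS13 (a glutaredoxin), BZS1 (a B-box factor of light and brassinosteroid signalling) and PELPK1 (a repetitive cell wall protein) were lower in dcp5-1 before salt, with gaps of -1.04, -0.78 and -1.09. Their interactions were 1.14, 1.14 and 1.07.

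Among named genes the second group was led by GSTF7 (AT1G02920), a glutathione transferase of defence. Its responses were -1.11 in dcp5-1 and 0.15 in Col-0. It had 47.1, 44.1 and 43.9 FPKM in dcp5-1 at 60 min and 96.6, 99.7 and 99.1 FPKM in dcp5-1 at 0 min, against 31.4, 32.8 and 31.9 FPKM in Col-0 at 60 min and 26.4, 29.6 and 30.3 FPKM in Col-0 at 0 min. All dcp5-1 libraries were above all Col-0 libraries, and the gap shrank with salt (interaction -1.26, SE 0.076, limma adjusted p = 9.8e-06). Its tandem neighbour GSTF6 had an interaction of -1.30 (limma adjusted p = 2.86e-05) through a rise of 1.39 in Col-0 and a response of 0.09 in dcp5-1; reads of the pair may have been split between near-identical copies. MYB28, the main activator of aliphatic glucosinolate synthesis, had 48.5, 44.2 and 46.9 FPKM in dcp5-1 at 60 min and 60.4, 59.3 and 61.6 FPKM in dcp5-1 at 0 min, against 21.0, 21.3 and 22.8 FPKM in Col-0 at 60 min and 15.7, 15.6 and 16.1 FPKM in Col-0 at 0 min (interaction -0.81, SE 0.067, limma adjusted p = 4.34e-05). CHI, the chalcone isomerase of flavonoid synthesis, averaged 35.3 FPKM in dcp5-1 at 60 min and 50.7 FPKM in dcp5-1 at 0 min, against 37.1 FPKM in Col-0 at 60 min and 23.7 FPKM in Col-0 at 0 min. Its libraries overlapped between genotypes at 60 min (interaction -1.14, limma adjusted p = 0.000158). EP1, the RNA-binding protein gene DRB3, FP3, the receptor kinase gene PERK10 and the chromatin protein gene HMGB6 had interactions of -1.003, -0.84, -0.81, -0.74 and -0.71.

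**Figure D4:**
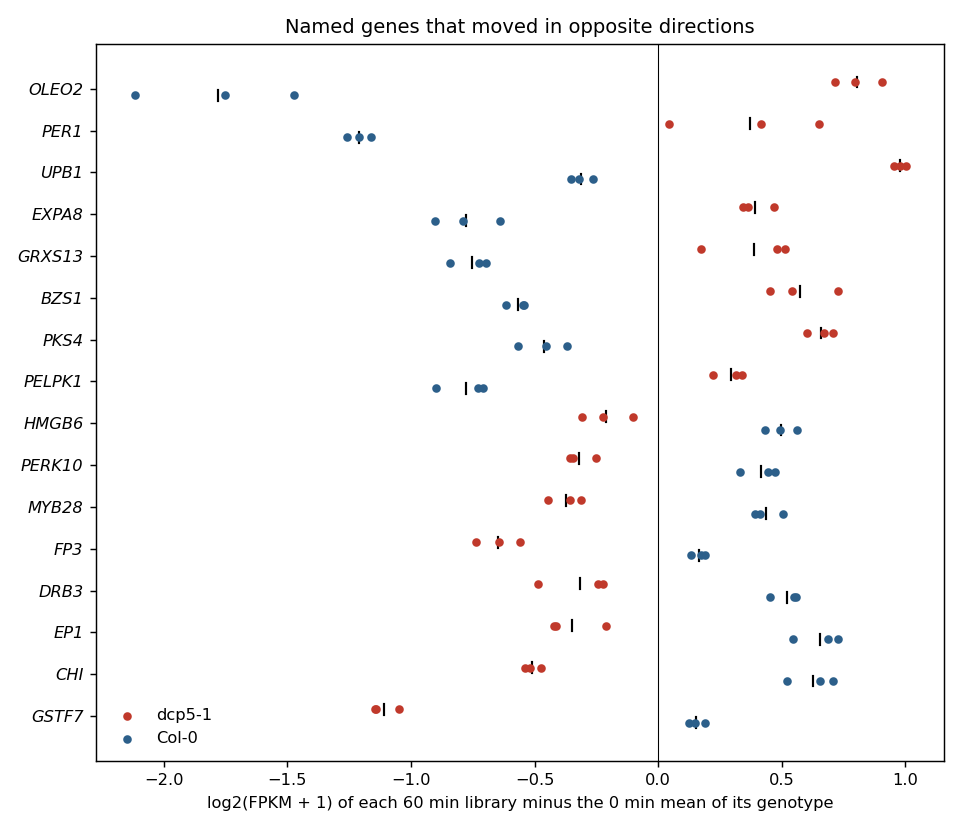
Response of each 60 min library, as its log2(FPKM + 1) minus the 0 min mean of its genotype, for the 16 named genes called in the interaction that moved in opposite directions (points are libraries, ticks their means, dcp5-1 above Col-0 in each row). The 3 dcp5-1 libraries lie on one side of 0 and the 3 Col-0 libraries on the other for every gene shown.

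Among the largest negative interactions, some genes rose less in dcp5-1. PRR9 (AT2G46790), a pseudo-response regulator that represses morning genes of the circadian clock, had 6.47, 5.98 and 7.22 FPKM in dcp5-1 at 60 min and 1.09, 1.77 and 1.77 FPKM in dcp5-1 at 0 min, against 39.1, 37.0 and 38.9 FPKM in Col-0 at 60 min and 4.49, 4.22 and 4.80 FPKM in Col-0 at 0 min. The dcp5-1 libraries were lower at both times and the gap widened with salt (interaction -1.26, SE 0.147, limma adjusted p = 0.00029). ABCG19 (AT3G55130), an ABC transporter gene next to CHI on chromosome 3, had 15.8, 17.8 and 17.1 FPKM in dcp5-1 at 60 min and 3.99, 4.22 and 4.43 FPKM in dcp5-1 at 0 min, against 37.7, 37.4 and 37.4 FPKM in Col-0 at 60 min and 3.69, 3.35 and 3.76 FPKM in Col-0 at 0 min (interaction -1.29, SE 0.082, limma adjusted p = 9.85e-06). CBF3, an activator of cold and dehydration genes, rose to 1.49, 2.75 and 2.65 FPKM in dcp5-1, against 6.42, 6.54 and 6.08 FPKM in Col-0, while no library of either genotype passed 0.238 FPKM at 0 min (interaction -1.22, limma adjusted p = 0.00212). Its neighbour CBF1 averaged 5.40 FPKM in dcp5-1 and 9.99 FPKM in Col-0 at 60 min (interaction -0.89, limma adjusted p = 0.0047). HSFA6A, a heat shock factor of salt and drought responses, averaged 22.1 FPKM in dcp5-1 and 35.1 FPKM in Col-0 at 60 min, and WRKY30 averaged 6.01 FPKM in dcp5-1 and 15.6 FPKM in Col-0 at 60 min. Their interactions were -1.22 and -1.14 (limma adjusted p of 0.00388 and 0.00333).

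Other genes of this side fell in dcp5-1. PROPEP3, the precursor of a peptide that signals damage, had 3.07, 3.09 and 3.95 FPKM in dcp5-1 at 60 min and 18.19, 16.7 and 21.1 FPKM in dcp5-1 at 0 min, against 5.76, 6.92 and 7.26 FPKM in Col-0 at 60 min and 7.82, 7.34 and 13.2 FPKM in Col-0 at 0 min. It was higher in dcp5-1 before salt and lower after (interaction -1.76, SE 0.251, limma adjusted p = 0.000903). The basic helix-loop-helix gene bHLH071 averaged 2.61 FPKM in dcp5-1 at 60 min and 9.78 FPKM in dcp5-1 at 0 min, against 7.10 FPKM in Col-0 at 60 min and 8.10 FPKM in Col-0 at 0 min (interaction -1.41, limma adjusted p = 1.72e-05). PRE1, an atypical helix-loop-helix protein that promotes cell elongation, averaged 4.79 FPKM in dcp5-1 at 60 min and 25.6 FPKM in dcp5-1 at 0 min, against 11.4 FPKM in Col-0 at 60 min and 22.1 FPKM in Col-0 at 0 min (interaction -1.31, limma adjusted p = 0.000101). WOX4, a homeobox factor of the vascular cambium, had means of 3.29 FPKM in dcp5-1 and 4.00 FPKM in Col-0 at 60 min, where every dcp5-1 library was slightly lower, and 9.72 FPKM in dcp5-1 and 4.07 FPKM in Col-0 at 0 min, where every dcp5-1 library was higher (interaction -1.31, limma adjusted p = 0.000204). The microRNA precursor locus MIR863 had an interaction of -1.55 with a limma adjusted p of 0.0359, which was 0.0519 with the 3 trends removed and 0.0647 without the filter on low values. Without 1 library it lost the call in 9 of the 12 cases, and it overlaps another locus, AT4G13495, on the same strand.

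Gene lists were described next by their counts, against the 16.3% of all loci called higher, the 8.06% called lower and the median interaction of 0.04 over all loci. Lists and members were drawn up with earlier results of these data known. Of 35 lists with 516 members, 492 members were tested.

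Genes of the Calvin cycle, which fixes carbon in chloroplasts, moved together. All 10 were called higher, with a median interaction of 0.89, a median response of -0.09 in dcp5-1 and -0.94 in Col-0. The count was 10 with the length trend removed, 9 with the 3 trends removed and 6 with quantile normalization, with 0 lower in each. RCA (AT2G39730), the activase of the carbon-fixing enzyme rubisco, had 2886, 2760.2 and 2923 FPKM in dcp5-1 at 60 min and 1202, 1275 and 1147 FPKM in dcp5-1 at 0 min. In Col-0 it had 1890.4, 1968 and 1903 FPKM at 60 min and 1599.7, 1959.5 and 1828 FPKM at 0 min. It was lower in dcp5-1 before salt and higher after (interaction 1.14, SE 0.113, limma adjusted p = 0.000144). PRK, the kinase that remakes the CO2 acceptor, had 410.0, 385 and 397 FPKM in dcp5-1 at 60 min and 238, 237 and 245 FPKM in dcp5-1 at 0 min, against 312, 333 and 318 FPKM in Col-0 at 60 min and 374, 395 and 384 FPKM in Col-0 at 0 min (interaction 0.99, SE 0.066, limma adjusted p = 1.04e-05). GAPB, a chloroplast glyceraldehyde phosphate dehydrogenase subunit, was level at 60 min, with 408, 429 and 432 FPKM in dcp5-1 and 430.4, 393 and 412 FPKM in Col-0, and apart at 0 min, with 464, 482 and 460.4 FPKM in dcp5-1 and 821, 1081 and 875 FPKM in Col-0 (interaction 1.008, limma adjusted p = 0.000354). The list's median gap was 0.11 at 60 min and -0.71 at 0 min.

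Nuclear genes of the photosystems and their antennae were called higher in 17 of 27 and lower in 0, with a median interaction of 0.48. They were 8 and 0 with quantile normalization, and 5 and 6, with a median of 0.00, with the 3 trends removed, so this group's direction was not firm. LHCB4.2, a minor antenna protein of photosystem II, averaged 1055 FPKM in dcp5-1 at 60 min and 1349 FPKM in dcp5-1 at 0 min, against 1183 FPKM in Col-0 at 60 min and 2814 FPKM in Col-0 at 0 min (interaction 0.89, limma adjusted p = 0.000936). Its Col-0 libraries at 0 min had 2490.3, 3258 and 2693 FPKM, and the Col-0 libraries at 0 min spread most over all genes too, with a median SD of 0.117 against 0.0713 to 0.077 in the other groups. Weights that limma estimates for each library were 0.4, 0.261 and 3.51 for Col-0 at 0 min replicates 1, 2 and 3, against 0.904 to 1.5 for the other libraries. PSAG, a subunit of photosystem I, had responses of -0.92 in dcp5-1 and -1.87 in Col-0.

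Cytosolic ribosomal protein genes were called higher in 14 of 19 and lower in 0 (median interaction 0.47; median responses -0.19 in dcp5-1 and -0.66 in Col-0). The counts were 5 and 1 with quantile normalization and 3 and 1 with the 3 trends removed. RPL10A had 624, 652 and 643 FPKM in dcp5-1 at 60 min and 872, 891 and 922 FPKM in dcp5-1 at 0 min, against 554, 523 and 507 FPKM in Col-0 at 60 min and 1029.6, 1436 and 1148 FPKM in Col-0 at 0 min (interaction 0.69, limma adjusted p = 0.00532). Genes of ribosome biogenesis were called higher in 6 of 17 and lower in 0, and in 4 and 0 with quantile normalization. FIB1 and FIB2, the fibrillarins of rRNA methylation, had interactions of 0.68 and 0.60. Among stress granule and translation initiation genes 5 of 17 were called higher and 1 lower, and 2 and 0 with quantile normalization. EIF4A1, the helicase that unwinds mRNA for ribosome loading, had responses of 0.41 in dcp5-1 and -0.49 in Col-0 (interaction 0.90, limma adjusted p = 0.000595).

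Cell wall growth genes were called higher in 11 of 23 and lower in 0, with counts of 7 and 2 under quantile normalization and 9 and 1 with the 3 trends removed. The xyloglucan enzymes XTH17 and XTH18 fell in both genotypes and less in dcp5-1. XTH18 averaged 27.2 FPKM in dcp5-1 at 60 min and 250.5 FPKM in dcp5-1 at 0 min, against 17.57 FPKM in Col-0 at 60 min and 312 FPKM in Col-0 at 0 min (interaction 0.92, limma adjusted p = 0.000148). Aquaporins, the water channels, were called higher in 4 of 18 and lower in 0, but 1 and 4 with quantile normalization and 1 and 5 with the 3 trends removed, so their direction turned with the scaling. PIP2;6 had responses of 0.33 in dcp5-1 and -0.52 in Col-0 (interaction 0.84, limma adjusted p = 0.000427). Auxin genes were called higher in 5 of 13 and lower in 1, and in 5 and 2 with quantile normalization. IAA2 and IAA19, auxin-induced repressors, were among the 5, and the repressor gene IAA14 (interaction -0.71) was the 1 called lower.

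Jasmonate genes went the other way. Of 23, 12 were called lower and 3 higher, with a median interaction of -0.22, and 14 were lower with quantile normalization and 14 with the 3 trends removed. The 12 included JAZ repressors, the activator gene MYC2 and the synthesis genes LOX2 and LOX3. MYC2, chosen after its values were seen, had 20.6, 21.3 and 19.8 FPKM in dcp5-1 at 60 min and 16.4, 14.6 and 16.0 FPKM in dcp5-1 at 0 min, against 48.6, 51.0 and 48.1 FPKM in Col-0 at 60 min and 24.3, 23.7 and 23.9 FPKM in Col-0 at 0 min. It rose less in dcp5-1 and from a lower level (interaction -0.64, SE 0.073, limma adjusted p = 0.000264). JAZ9, a repressor of MYC2 chosen likewise, had 128, 131 and 125 FPKM in dcp5-1 at 60 min and 123.3, 129 and 117 FPKM in dcp5-1 at 0 min, against 244, 243 and 252 FPKM in Col-0 at 60 min and 162, 152 and 157 FPKM in Col-0 at 0 min (interaction -0.60, limma adjusted p = 0.000242). JAZ5 and LOX3 fell more in dcp5-1, with interactions of -0.74 and -0.69. The 3 called higher were AOC2 and AOC3, which encode allene oxide cyclases of jasmonate synthesis, with 0.82 and 0.76, and CYP94C1, an enzyme of jasmonate breakdown, with 0.59.

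Clock genes were called lower in 6 of 16 and higher in 2 (median -0.16). The counts were 6 and 2 with quantile normalization and 6 and 3 with the 3 trends removed. PRR7 had 9.91, 9.89 and 10.8 FPKM in dcp5-1 at 60 min and 6.92, 8.23 and 6.61 FPKM in dcp5-1 at 0 min, against 41.5, 37.6 and 43.6 FPKM in Col-0 at 60 min and 19.7, 15.4 and 16.8 FPKM in Col-0 at 0 min (interaction -0.75, SE 0.135, limma adjusted p = 0.00293). PRR5 averaged 1.39 FPKM in dcp5-1 and 4.51 FPKM in Col-0 at 60 min (interaction -1.07, limma adjusted p = 0.00169). The 2 higher were LUX, of the evening complex, with 0.48, and LHY, a morning MYB factor, with 0.39. The time of day of sampling is not in the labels. The promoter of PRR9 is shown for its clock and G-box letters, 250 bases before the start on the plus strand, chr2:19232357-19232606 of TAIR10.1, with the evening element, the G-box and the core of ABA response elements on either strand in capitals.
PRR9: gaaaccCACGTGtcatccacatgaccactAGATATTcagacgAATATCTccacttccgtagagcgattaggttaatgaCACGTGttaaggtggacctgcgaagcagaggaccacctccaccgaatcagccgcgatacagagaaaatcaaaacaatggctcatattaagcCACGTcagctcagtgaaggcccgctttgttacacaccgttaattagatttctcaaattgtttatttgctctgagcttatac

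ABA genes were divided. Of 18 ABA and dehydration effectors 5 were called higher and 4 lower, but 3 and 6 with quantile normalization and 3 and 7 with the 3 trends removed. KIN2, a small hydrophilic stress protein, averaged 2022 FPKM in dcp5-1 at 60 min and 820.15 FPKM in dcp5-1 at 0 min, against 3039.5 FPKM in Col-0 at 60 min and 761 FPKM in Col-0 at 0 min (interaction -0.70, limma adjusted p = 0.0045). RD20, a calcium-binding caleosin, had -0.59, and the lipid transfer protein gene LTP4 had 0.83. PP2C phosphatases of clade A act as brakes on ABA signalling, and 3 of 8 were called higher and 1 lower, and 1 and 1 with quantile normalization. ABI1 had responses of 4.31 in dcp5-1 and 3.87 in Col-0 (interaction 0.45, limma adjusted p = 0.00056). HAI1, with 0.68, lost its call under quantile normalization (limma adjusted p = 0.121) and in 7 of the 12 fits without 1 library, and PP2CA, with 0.32, had -0.04 there (limma adjusted p = 0.587). Of 9 ABA receptors 3 were called higher and 0 lower: PYL5, PYL4 and PYR1 fell in both genotypes and less in dcp5-1. With quantile normalization 2 were called higher and 0 lower. PYR1, with a limma adjusted p of 0.0457, lost its call there (0.291), with the 3 trends removed (0.416), with the length trend removed (0.107), with median centring (0.0542), without the filter or the variance trend, and in 9 of the 12 fits without 1 library. The ABA breakdown gene CYP707A1 averaged 9.37 FPKM in dcp5-1 at 60 min and 7.82 FPKM in dcp5-1 at 0 min, against 7.67 FPKM in Col-0 at 60 min and 10.3 FPKM in Col-0 at 0 min (interaction 0.62, limma adjusted p = 0.000397).

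Ethylene genes were called higher in 7 of 14 and lower in 1, and in 6 and 3 with quantile normalization. Of 17 ERF and DREB factors 6 were called higher and 2, CBF3 and CBF1, lower, and 5 and 2 with quantile normalization. DREB26 fell in both genotypes and less in dcp5-1, with 5.98, 5.34 and 6.46 FPKM in dcp5-1 at 60 min and 112, 111 and 113 FPKM in dcp5-1 at 0 min, against 3.13, 3.17 and 3.36 FPKM in Col-0 at 60 min and 175, 188 and 198 FPKM in Col-0 at 0 min (interaction 1.45, SE 0.089, limma adjusted p = 9.8e-06).

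The machinery of mRNA decay was covered by a decapping list and a deadenylation list, beside 16.3% of all loci called higher and 8.06% lower. Of 23 decapping and processing body genes 4 were called higher and 0 lower, and 1 and 3 with quantile normalization. Those 4 were DCP1, which activates DCP2, and LSM2, LSM3B and LSM6B, subunits of the ring that binds deadenylated mRNA ends, with interactions of 0.31 for DCP1, 0.39 for LSM2, 0.73 for LSM3B and 0.50 for LSM6B. DCP1, LSM2 and LSM6B each lost the call with quantile normalization (limma adjusted p of 0.303, 0.132 and 0.0667), with the 3 trends removed and with the length trend alone removed, and LSM6B also without the filter on low values and in 8 of the 12 fits without 1 library. Of 16 deadenylation and tandem zinc finger genes 6 were called higher and 1 lower, and 5 and 3 with quantile normalization. TZF5, a tandem zinc finger protein of seed and ABA responses, had 40.5, 39.9 and 38.8 FPKM in dcp5-1 at 60 min and 5.23, 4.99 and 5.83 FPKM in dcp5-1 at 0 min, against 39.5, 43.4 and 41.2 FPKM in Col-0 at 60 min and 13.5, 17.3 and 14.5 FPKM in Col-0 at 0 min. The genotypes overlapped at 60 min and were apart at 0 min (interaction 1.28, SE 0.115, limma adjusted p = 7.77e-05).

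The other lists showed mixed counts, given as called higher and called lower, with those under quantile normalization in brackets. Redox and glutathione transferase genes had 3 and 4 of 17 (0 and 7, also with the 3 trends removed). Glucosinolate genes had 6 and 2 of 21 (3 and 3), heat shock genes 3 and 2 of 23 (4 and 2), and ER chaperones 3 and 0 of 8 (2 and 1). C2H2, WRKY and MYB factors had 4 and 3 of 17 (3 and 4), and NAC, bZIP and homeodomain factors 2 and 3 of 15 (2 and 5). Ion transport genes had 4 and 1 of 12 (0 and 3), touch and calcium genes 3 and 1 of 13 (3 and 1), and salicylic acid and defence genes 2 and 3 of 11 (2 and 3). Osmolyte enzymes had 2 and 0 of 10 (0 and 2), ABA synthesis and breakdown genes 3 and 1 of 8 (2 and 1), early light-induced and flavonoid genes 3 and 1 of 10 (4 and 1), and hypoxia genes 2 and 0 of 9 (2 and 0). ELIP1 and ELIP2, light stress proteins of the chloroplast, had interactions of 0.58 and 0.66 although both were higher in dcp5-1 at both times, with gaps of 3.60 and 2.05 at 60 min and 3.02 and 1.39 at 0 min. ELIP1 lost its call with the length trend removed (limma adjusted p = 0.052), with the 3 trends removed (0.229) and in 6 of the 12 fits without 1 library.

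Markers of cell types were read the same way. Stomatal lineage and guard cell markers had 0 higher and 3 lower of 7, and 0 and 2 with quantile normalization: FAMA had 16.8, 16.1 and 16.8 FPKM in dcp5-1 at 60 min and 15.3, 15.01 and 16.9 FPKM in dcp5-1 at 0 min, against 21.8, 21.3 and 23.0 FPKM in Col-0 at 60 min and 16.0, 15.01 and 15.5 FPKM in Col-0 at 0 min (interaction -0.42, SE 0.075, limma adjusted p = 0.0032). The 7 markers summed to 52.7 to 57.9 FPKM in dcp5-1 at 60 min and 47.3 to 52.3 FPKM in dcp5-1 at 0 min, against 72.5 to 76.0 FPKM in Col-0 at 60 min and 47.6 to 51.3 FPKM in Col-0 at 0 min. Root markers had 1 higher (PYK10) and 2 lower (EXPA7 and CASP4) of 9, with 0 and 1 with quantile normalization. EXPA7 lost its call there (limma adjusted p = 0.0704), and EXPA7 and CASP4 each lost it in several fits without 1 library. PYK10 was the only 1 of the 9 with a positive interaction (0.37), while the list's median was -0.09. The PYK10 interaction was -0.045 with the 3 trends removed and 0.04 with quantile normalization, where its limma adjusted p was 0.816. Their summed level is mostly PYK10 and so does not follow the other markers: it was 2144 to 2190 FPKM in dcp5-1 at 60 min and 2244 to 2308 FPKM in dcp5-1 at 0 min, against 1376 to 1434 FPKM in Col-0 at 60 min and 1757 to 2023 FPKM in Col-0 at 0 min. Vascular markers had 1 higher and 0 lower of 6, and 1 and 1 with quantile normalization. Markers of dividing cells had 0 and 0 of 4 by limma, also with quantile normalization, with 1, KN, at an unadjusted p under 0.05. The part of these cell types in the gene results was not tested.

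**Figure D5:**
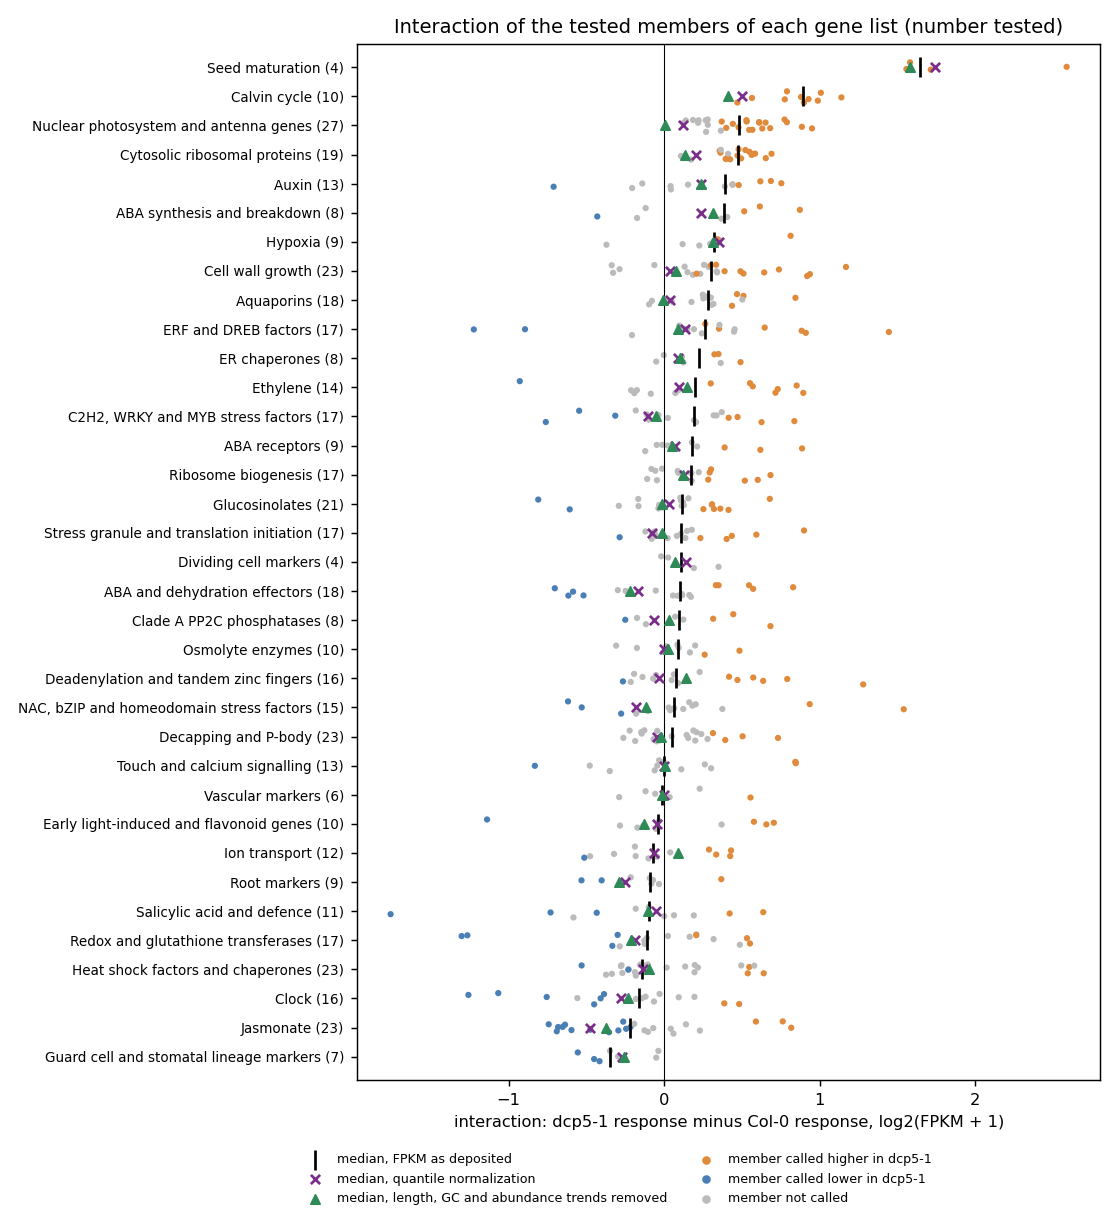
Interaction (log2 scale) of each tested member of the 35 lists, coloured by call, with the list's median as deposited (bar), with quantile normalization (cross) and after the 3 trends were subtracted (triangle). Seed maturation and Calvin cycle genes have the largest positive medians in all 3 settings, and other lists, such as cytosolic ribosomal proteins and auxin, also keep positive ones. Jasmonate, clock and stomatal genes keep negative medians, as do others, such as the redox and heat shock lists. The photosystem median moves to 0.00 when the 3 trends are removed.

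Promoter letters were counted as a description over 18718 nuclear protein-coding loci tested, in 250 bases before and 50 bases after the start, on both strands, for 10 motifs. These were ACGTG of ABA response elements and the G-box CACGTG that holds it, then CCGAC of DREB sites, CGCGT of calmodulin-responsive factors, TTGACC of WRKY sites, GCCGCC of ethylene response factors, the evening element AATATCT, GAANNTTC of heat shock factors, the telo box AAACCCTA and the TCP letters TGGGCC. AAACCCTA, the telo box of ribosomal and growth genes, was in 7.26% of promoters of loci called higher and 3.28% of those called lower, against 5.52% of all. TGGGCC, the TCP-binding letters common in the same genes, was in 23.3% of those called higher and 13.8% of those called lower, against 19% of all. ACGTG was in 29.7% and 30% of them, against 28.1% of all, and in 69.6% of the 23 jasmonate promoters. AATATCT was in 11.9% of those called higher and 12.8% of those called lower, against 11.6% of all. The shares among loci called higher or lower use the calls as deposited, which depended on scaling, and were not counted under other settings. AAACCCTA was in 47.4% of the 19 ribosomal protein promoters. As an example, the stretch of RPS5A (interaction 0.42, limma adjusted p = 0.0388), the called ribosomal protein gene of largest interaction with a telo box before its start, is shown from chr3:3779546-3779795, minus strand of TAIR10.1, with AAACCCTA and ACGTG on either strand in capitals.
RPS5A: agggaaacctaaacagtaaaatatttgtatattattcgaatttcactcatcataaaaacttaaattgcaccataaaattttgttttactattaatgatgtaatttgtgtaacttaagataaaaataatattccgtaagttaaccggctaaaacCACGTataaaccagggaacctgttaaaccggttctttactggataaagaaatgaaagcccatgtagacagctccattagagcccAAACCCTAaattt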

How the data were processed

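The deposited table, made by the authors, gives FPKM in 12 columns, 1 per library, and 38088 loci after removal of 1 line that held no value. Per the submitters' processing notes reads were aligned with Bowtie to TAIR10; which program computed FPKM, and how it treated strand and reads with several matches, is not given in the sources used here. In all, 37792 locus identifiers matched the TAIR10.1 RefSeq annotation, which gave symbols, lengths and GC contents; the genome sequence gave the promoters.

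The 19876 loci that averaged 1 FPKM or more over the 12 libraries were analysed as log2(FPKM + 1). The pseudocount of 1 shrinks changes of low genes. limma 3.58.1 in R 4.3.3 fitted the 4 group means (empirical Bayes with a trend, 8 residual and 3.29 prior degrees of freedom), with two-sided p-values adjusted by Benjamini and Hochberg across every locus tested in a contrast. Tables and figures used Python 3.11.15, numpy 2.4.6, pandas 2.3.3 and matplotlib 3.10.9. The code was tested on simulated data.

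Depth was read from the values. In 10863 nuclear genes with a single transcript longer than 1000 nt, low values (under 10 reads) lay within 0.1 of a whole read in 99.2% to 99.6% of cases after a fitted length correction of 242 to 274 nt and 1 scale per library. Each library's scale corresponds to 14560000 to 20890000 reads in all, of which these genes held 5972483 to 6699503, with medians of 109 to 167 reads per gene. The Col-0 libraries at 0 min had the lowest scales, with 16710000, 14560000 and 15680000 reads for replicates 1, 2 and 3. The other libraries had 17730000 to 20890000. In that Col-0 group these genes held 6207815, 6305766 and 6231652 reads, a larger part of the library than in any other group. The part of this difference in the calls was not tested. Log2 values correlated across genes at r = 0.986 to 0.992 within groups and 0.881 to 0.975 between groups.

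Genes named are DCP5, the 12 largest positive and 12 largest negative interactions among called loci with a symbol and at least 5 FPKM in the highest group mean, 8 per direction of opposite change, and up to 4 called members per list; the genes said to be chosen after their values were seen, RPS5A and the members that complete a count of 5 or fewer fall outside this rule. The members, lists and tests were chosen with earlier results of these data known. Alternatives changed the pseudocount, filter, scaling, length correction, library weights, variance trend, replicate block and libraries, and limma-voom was run on recovered reads. A gene and a promoter sequence are not reported here.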

Additional observations from a re-analysis of the deposited data

Results flagged for a closer look

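The interaction tests a difference between the changes of the 2 genotypes over their time in NaCl. Each change holds the salt and a further time in liquid, which no library separates. A call is a test result at the stated threshold, not proof of a difference. As deposited, the interaction was called for 3248 loci higher in dcp5-1 and 1602 lower. The counts depended on scaling, with 2033 higher and 2077 lower under quantile normalization. A direction was taken from the limma test of each genotype's response, not from the interaction test. Some of these responses were small: PER1 rose by 0.37 in dcp5-1, GSTF7 by 0.15 in Col-0 and FP3 by 0.17 in Col-0. Their limma adjusted p were 0.0298, 0.0229 and 0.0327. Whether each gene kept opposite directions under other settings was not examined. Named genes with opposite, called directions are listed with their interactions. Those that rose in dcp5-1 and fell in Col-0 were OLEO2 (interaction 2.59), PER1 (1.58), UPB1 (1.29), EXPA8 (1.17), GRXS13 (1.14), BZS1 (1.14), PKS4 (1.12) and PELPK1 (1.07). Those that fell in dcp5-1 and rose in Col-0 were GSTF7 (-1.26), CHI (-1.14), EP1 (-1.003), DRB3 (-0.84), FP3 (-0.81), MYB28 (-0.81), PERK10 (-0.74) and HMGB6 (-0.71).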

How the results depend on the processing

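Of 154 named genes, 109 kept their direction and their side of the threshold under every setting run over all loci. The directions that turned were those of PP2CA (-0.044 with quantile normalization), PYK10 (-0.045 with the trends on length, GC content and abundance subtracted) and ACS11 (-0.243 on recovered reads scaled to their total); the cause was not tested. Loci called higher numbered 1669 with the 3 trends removed, 2033 with quantile normalization, 1483 among single-transcript genes over 1000 nt, where fewer loci were tested, and 1522 and 550 by limma-voom on the recovered reads of those genes at the scale of the FPKM and scaled to their total. Loci called lower numbered 2473 with array weights, 651 among single-transcript genes and 640 by limma-voom at the scale of the FPKM. Loci that rose in dcp5-1 and fell in Col-0 numbered 107, 108, 91, 98 and 32 with the 3 trends removed, quantile normalization, single-transcript genes and the voom fits. Those that fell in dcp5-1 and rose in Col-0 numbered 134 with array weights, 114 with the 3 trends removed, 38 among single-transcript genes, and 35 and 118 by voom. The median interaction of strong falls was 0.192 with the length trend removed, 0.158 with the 3 trends removed, 0.223 with quantile normalization and 0.050 by voom on the total. That of strong rises was 0.017 with array weights, -0.035 with the length trend or the 3 trends removed, 0.049 at 5 FPKM, -0.016 and 0.065 with pseudocounts of 0.1 and 5, -0.068 with quantile normalization, and 0.010 and -0.293 by voom, so it has no firm sign.

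Leaving out each library in turn gave 2407 to 3907 loci higher, 1080 to 1854 lower, 136 to 248 and 52 to 105 with opposite directions, and medians of 0.285 to 0.393 for strong falls and 0.005 to 0.037 for strong rises. The last was 0.005 without Col-0 0 min replicate 1, 0.015 without Col-0 0 min replicate 3 and 0.018 without Col-0 60 min replicate 2. With the replicate number as a block, 3117 loci were higher and 1443 lower, and 2 named genes lost their call. The 18 correlations of same-numbered libraries' deviations ran from -0.104 to 0.18, and in 8 of 18 pairs of a library and another group the library correlated best with its own number, so the number was not treated as a pairing. Between dcp5-1 at 60 min and at 0 min each library did correlate best with its own number (0.18, 0.08 and 0.109 for replicates 1, 2 and 3). Within Col-0 these values were 0.012, -0.06 and -0.059. A pairing within dcp5-1 alone was not fitted. A quasi-likelihood count test was not run. The sources give no counts, and reads were recovered only for part of the loci, so the precision of low genes outside that part was not checked on reads.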
